A study of Homo sapiens with 8 samples.

Results

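Double-null HAP1 cells, which lack both SMARCB1 and SMARCA4, were set against HAP1 cells that lack SMARCA4 only, a comparison that asks how the transcriptome differs once SMARCB1 is lost where SMARCA4 is already missing. HAP1 is an established near-haploid human cell line. The SMARCB1-SMARCA4_Null samples came from a single line, edited with SMARCB1 guide CRISPR-1 and SMARCA4 guide CRISPR-2, at passages 15 and 18. The SMARCA4_Null samples were 2 lines at passage 12, one made with SMARCA4 guide CRISPR-1 and one with CRISPR-2, so that all 4 samples lacked SMARCA4 and the double null shared a SMARCA4 guide with 1 of them. The series of 8 samples also held 2 SMARCB1_Null lines at passage 12, 1 for each of 2 guides, and Wildtype HAP1 at passages 9 and 12. Passage, and whatever sets a single line apart, cannot be told apart from SMARCB1 loss in this comparison. The 2 double-null samples are passages of one line, so the spread behind the p-values may be technical there, and the tests speak of these samples only.

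The genes compared were the 13459 of 19541 in the authors' table with at least 1000 reads summed over all samples. For each, the log2 change is the log2 of the double-null ratio to wildtype divided by the SMARCA4-null ratio to wildtype. Wildtype cancels in this quotient, and a positive value means a higher level in the double null. The table gives group ratios and no values per sample, but whole reads per library could be worked back from the ratios and the total for 1974 of the 13459 genes. Those genes carry the values per library and the tests. They are not an even sample: 778 of 4044 genes in the lowest class of total reads were recovered, 1137 of 8091 in the middle class and 59 of 1324 in the highest. Their levels are given in depth-corrected reads, that is, reads in a library scaled to the mean depth of the 8 libraries. Other genes have a level per group, implied by the total and the ratios, with no spread between samples.

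SMARCA4 is one of the alternative ATPases of the SWI/SNF (BAF) complexes, which slide and evict nucleosomes and so open enhancers and promoters. SMARCB1 is a core subunit that the canonical BAF and PBAF forms carry and that the non-canonical BAF form lacks, and SMARCA2 is the ATPase that can take the place of SMARCA4. Loss of SMARCB1 is the defining lesion of rhabdoid tumours, and loss of SMARCA4 marks a smaller share of them.

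The libraries held 102917960 and 75723690 reads in the double null and 92256521 and 71505311 in the SMARCA4 null, as recovered from the ratios. In each group they can be told apart only as the deeper and the shallower, not by passage or guide. The deeper double-null library stood apart from its partner. Among 137 recovered genes at least 2-fold higher in the double null, 69 had over 90% of the double-null reads in the deeper library, and none had over 90% in the shallower. The 137 make up 6.94% of the recovered genes, and the 26 at least 2-fold lower make up 1.32%. Without the deeper library, 62 of the 137 were still at least 2-fold higher and all 26 still at least 2-fold lower, and the counts over all recovered genes became 65 higher and 65 lower. Of the 69, the authors' deposited table called 4 higher than wildtype in the double null at an FDR under 0.05, compared with 37 of the other 68 and 12.6% of all 13459 genes. Across recovered genes, 80 were over 4-fold higher in the deeper than in the shallower double-null library and 0 the other way, against 15 and 3 in the SMARCA4 null.

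**Figure D1:**
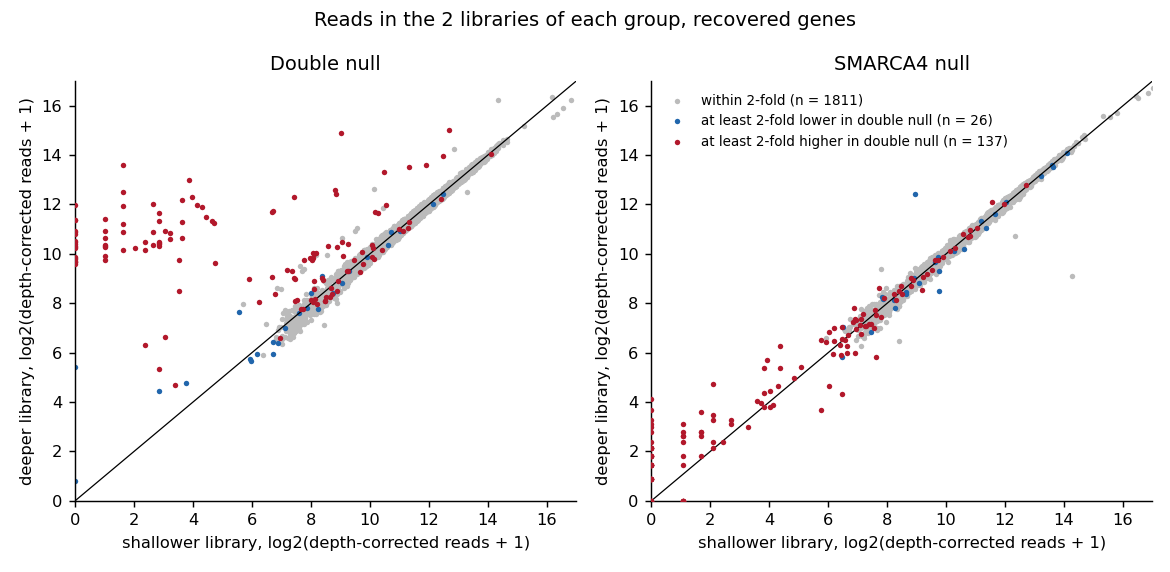
Depth-corrected reads (log2 of reads + 1) of each recovered gene in the deeper library (y axis) and the shallower library (x axis) of the double null (left) and the SMARCA4 null (right). Points are genes, coloured by their log2 change, and the line marks equal levels: of the 137 genes higher in the double null, 69 sit far above the line in the left panel, with over 90% of their double-null reads in the deeper library.

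The recovered markers of neurons and neuroendocrine cells went with that library. The 46 neuronal markers summed to an implied 293157 depth-corrected reads in the double null, against 59497 in the SMARCA4 null, and the 20 neuroendocrine markers found in the table to 56429 in the double null and 5764 in the SMARCA4 null. Of these, 3 neuronal and 6 neuroendocrine markers were recovered, and in all 9 the deeper double-null library was the higher one, with 98.7% and 86.5% of the summed double-null reads. The recovered neuronal markers summed to 38989 reads in the deeper and 521 in the shallower double-null library, against 1685 and 1703 in the SMARCA4 null. SST, the hormone somatostatin, had 53.6 reads in the deeper double-null library and 0 in the shallower, against 0 and 0 in the SMARCA4-null libraries. Of the 20 neuroendocrine markers, 3 had no reads in the SMARCA4 null and 0 were without reads in the double null, whereas all 46 neuronal markers had reads in both. In bulk RNA a change in the share of cells of a type and a change in RNA per cell cannot be told apart, and the part of either in these values was not tested. Skeletal muscle markers were low, at 2650.1 summed reads in the double null and 1646 in the SMARCA4 null. HAP1 descends from a leukaemia line but grows attached, and blood markers were near absent, as were endothelial and hepatocyte markers, with at most 289 summed reads in the double null and 471 in the SMARCA4 null.

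The edited genes differed as the labels say for SMARCB1. SMARCB1 stood at 1485 implied reads in the double null and 7910.2 in the SMARCA4 null, a log2 change of -2.41. In the authors' deposited table its ratio to wildtype was 0.182 in the double null (FDR 1.68e-13) and 0.97 in the SMARCA4 null (FDR 0.979). SMARCA4 had 6896 implied reads in the double null and 4174 in the SMARCA4 null, both far below the 45497 of wildtype, and the authors' deposited table sets its ratios to wildtype at 0.152 in the double null and 0.0918 in the SMARCA4 null. The residual SMARCA4 level was thus higher in the double null, by 0.72 on the log2 scale. SMARCA2 was level, at 3905 implied reads in the double null and 3890.4 in the SMARCA4 null. Over the 28 SWI/SNF subunits the median log2 change was 0.07. Besides SMARCB1 itself, the only subunit gene past 2-fold was ACTL6B, the neuron-specific actin-like subunit, with 1156 reads in the deeper and 2.08 in the shallower double-null library, against 7.69 and 1.1 in the SMARCA4 null. ACTL6B reached the read minimum only with its double-null reads (1511 of 1529).

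Most genes differed little. The median log2 change over the 13459 genes was 0.06, the quartiles lay at -0.14 and 0.27, and 89.0% stayed within 2-fold. At least 2-fold higher in the double null were 1070 genes (7.95% of those compared), and at least 2-fold lower were 417 (3.1%). The counts of each gene list below are to be set beside these shares. The upper side reached further: 370 genes were at least 16-fold higher and 37 at least 16-fold lower. Of the 1070 higher genes, 370 were called higher than wildtype in double-null cells and 86 lower in SMARCA4-null cells by the authors' deposited table (12.6% and 5.42% of all genes), 432 in all with either call. Of the 417 lower genes, 166 were called lower in the double null and 153 higher in the SMARCA4 null (7.66% and 8.32% of all genes), 281 with either. In the SMARCA4 null 11 of the 13459 genes had no reads, and in the double null 0. The minimum on total reads counts the reads of the compared groups: 494 of the 1070 higher genes reached it only with their double-null reads, and 66 of the 417 lower genes only with their SMARCA4-null reads. Among the 12809 of the 13459 genes with at least 500 reads in the SMARCB1-null and wildtype libraries together, a minimum that uses neither compared group and was added after results were known, 652 were at least 2-fold higher (5.09%) and 367 at least 2-fold lower (2.87%).

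Reads were tested with edgeR's quasi-likelihood test on the recovered genes, with p-values adjusted by Benjamini-Hochberg over all 3769 genes tested, of which 1947 had at least 1000 total reads. Of these 1947, 248 rose in the double null (12.7%) and 141 fell (7.24%) at an adjusted p under 0.05. In each of the 389 both double-null libraries lay beyond both SMARCA4-null libraries, as they did above in 774 (39.8%) and below in 413 (21.2%) of all 1947, so that this adds little to the call. At least 2-fold in size were 41 of the rises and 21 of the falls. The split depends on scaling: with TMM normalization 128 rose and 255 fell, so that rises made up 33.4% of the calls and not 63.8%, and the median log2 change was -0.04 in place of 0.08. The direction of a small change thus depends on the scaling. The calls also lean on both SMARCA4-null libraries, since 36 rises and 30 falls were called without the shallower one and 68 and 45 without the deeper one.

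Among the tested genes with the largest rises were several that were silent in the SMARCA4 null. TNFAIP6, a secreted hyaluronan-binding protein induced by inflammatory signals, had 633 and 593 reads in the double null, against 0 and 0 in the SMARCA4 null, which makes it at least 425-fold higher when the SMARCA4 null is set at 3 reads over the group (edgeR adjusted p = 0.00123). HAPLN1, a link protein that ties proteoglycans to hyaluronan, had 973 and 549.6 reads in the double null, against 0 and 0 in the SMARCA4 null, and was at least 527-fold higher (edgeR adjusted p = 0.00976). AMBN, the enamel matrix protein ameloblastin, had 95 and 124 reads in the double null, against 0 and 0 in the SMARCA4 null, at least 75.8-fold higher (edgeR adjusted p = 9.49e-09). All 3 genes had their reads in both double-null libraries and none in the SMARCA4 null. Of the 10 largest rises, 7 reached the minimum of 1000 total reads only with their double-null reads, HAPLN1 among them with 1798 of 1840.0, so that the filter favoured a rise among them. Without the deeper or the shallower SMARCA4-null library the edgeR adjusted p of HAPLN1 was 0.0725 or 0.0889.

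NDST4, a heparan sulfate-modifying enzyme, had 871 and 711 reads in the double null and 0 and 1.1 in the SMARCA4 null, a ratio with a 95% counting interval of 252 to 55512. ZNF385D, a zinc-finger gene, had 276 and 182 reads in the double null, 0 and 1.1 in the SMARCA4 null and 443 and 276 in wildtype (edgeR adjusted p = 0.000214), so that the double null stood near wildtype and the SMARCA4 null at 1 read in all. ALDH1A1, which makes retinoic acid from retinaldehyde, reached 515 and 328 reads in the double null, against 8.54 and 3.31 in the SMARCA4 null, a log2 change of 6.08 (SE 0.464, edgeR adjusted p = 7.76e-07). The peroxisomal fatty acid transporter ABCD2 had near-equal double-null libraries of 396 and 407 in the double null, against 19.6 and 13.2 in the SMARCA4 null (log2 change 4.59, SE 0.321, edgeR adjusted p = 6.02e-08). FAM189A1 followed with 477 and 272 reads in the double null and 41 and 19.8 in the SMARCA4 null. PLCL1, with 535 and 101 reads in the double null, against 12.8 and 13.2 in the SMARCA4 null, and LGI3, with 653 and 146 in the double null, against 23.9 and 18.7 in the SMARCA4 null, leaned to the deeper double-null library. Their edgeR adjusted p was 0.032 and 0.0326, but 0.176 and 0.165 without the deeper SMARCA4-null library and 0.207 and 0.218 without the shallower one.

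The largest tested falls, like the rises, were taken only from genes whose double-null and SMARCA4-null libraries did not overlap. Of the 10 falls, 6 reached the read minimum only with their SMARCA4-null reads. TRIML2 had 0.766 and 0 reads in the double null, against 364 and 861 in the SMARCA4 null (edgeR adjusted p = 0.0036), and the 95% counting interval of its fall runs between 279-fold and 61319-fold. FBN2, fibrillin-2 of the extracellular microfibrils, had 217 and 304 reads in the double null, against 17147 and 17579.7 in the SMARCA4 null, a log2 change of -6.07 (SE 0.912, edgeR adjusted p = 0.0187). Its groups did not overlap, but the edgeR adjusted p lay between 0.0591 and 0.151 without any 1 of the 4 libraries. S100A10, the annexin A2 partner that carries plasminogen activation to the cell surface, fell to 1901 and 1679 reads in the double null, against 9093 and 9637 in the SMARCA4 null (log2 change -2.39, SE 0.0948, edgeR adjusted p = 6.04e-11). MAN2A1, the Golgi mannosidase that trims N-glycans, fell to 4096 and 4467 in the double null, against 12392 and 12437 in the SMARCA4 null (log2 change -1.54, SE 0.0828, edgeR adjusted p = 2.56e-09).

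Genes at lower levels fell as well. PROC, the anticoagulant protein C, had 60.5 and 70.8 reads in the double null, against 347 and 402 in the SMARCA4 null. NUAK2, a kinase of the AMPK family, had 196 and 193 in the double null, against 641 and 855 in the SMARCA4 null. BST1, an ADP-ribosyl cyclase of the cell surface, had 26 and 12.5 in the double null, against 278 and 298 in the SMARCA4 null. LRGUK (log2 change -2.71), SDSL (-1.88), a serine dehydratase-like enzyme, and the transcription factor gene DMRTA1 (-1.64) completed the 10 largest. In all of these the edgeR adjusted p was at most 0.0072, although BST1 and DMRTA1 missed the threshold when either SMARCA4-null library was left out.

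**Figure D2:**
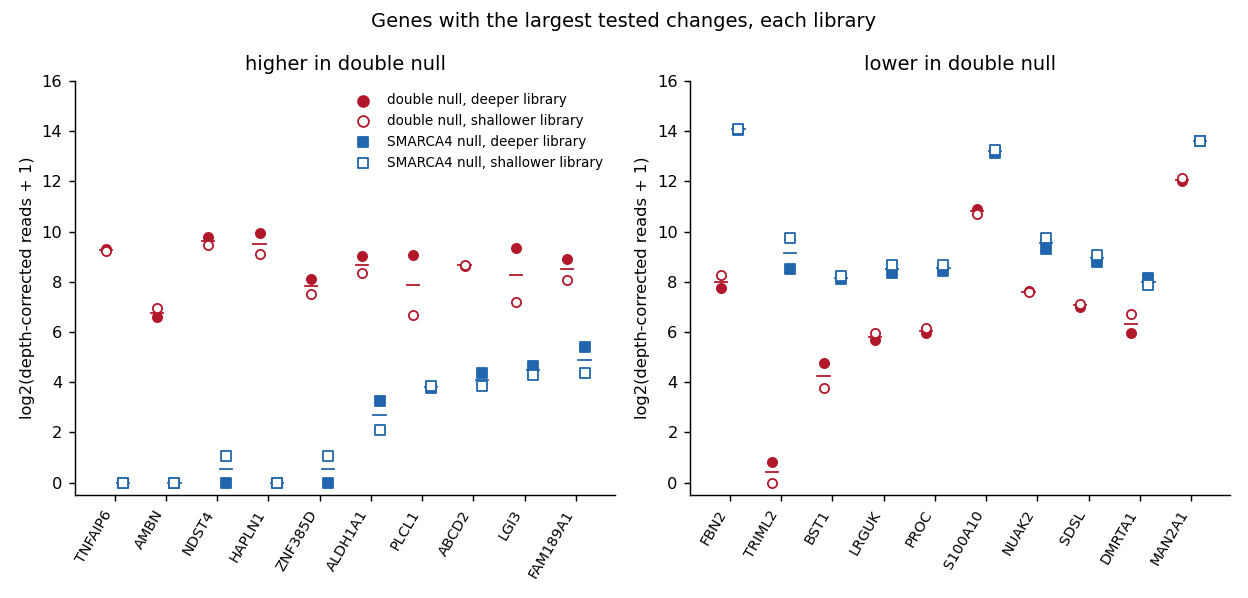
Depth-corrected reads (log2 of reads + 1, y axis) of the 10 largest tested rises (left) and the 10 largest tested falls (right) in each library. Circles are the double null and squares the SMARCA4 null, filled for the deeper library and open for the shallower, with a short bar at each group mean. The genes were chosen so that the libraries of the 2 groups do not overlap.

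Over all 13459 genes, the largest positive changes among those with at least 50 implied reads in the higher group and an FDR under 0.05 against wildtype in either null were again mostly of genes near silent in the SMARCA4 null. FOXA2, the endoderm and floor plate pioneer factor, stood at 581 implied reads in the double null, 230.2 in the SMARCB1 null, 6.11 in wildtype and 0 in the SMARCA4 null, and was at least 402-fold higher in the double null than in the SMARCA4 null. The long non-coding RNA LINC01189 (805 implied reads in the double null and 0 in the SMARCA4 null) was at least 557-fold higher. DSG1, a desmosomal cadherin of stratified epithelium, had 79.4 in the double null and 0 in the SMARCA4 null and was at least 55-fold higher. With 2 or 3 reads in the SMARCA4 null were LGR5, the R-spondin receptor and stem cell marker (1171 implied reads per library in the double null, ratio interval 374 to 11170.5), FSTL5 (1059, 322 to 9597), RALYL (752, 199 to 5937), TMEFF2 (1070.5, 304 to 9079.8) and CSRNP3 (1377, 303 to 4295). These intervals and bounds cover counting error only. Every gene named in this paragraph reached the read minimum only with its double-null reads, FOXA2 with 1317 of 1732. The filter thus favoured a rise among them.

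TMEFF2 and CSRNP3 differed from the others in that wildtype cells carried them, at 244 and 332 implied reads. In the authors' deposited table their SMARCA4-null ratios to wildtype were 0.00399 and 0.00469, at FDRs of 0.0261 and 2.4e-09, whereas the double null was not called, at FDRs of 0.993 and 0.445. IGF2, the imprinted fetal growth factor, belongs to the same 12, with NDST4, TNFAIP6 and AMBN from above. It had 75693 implied reads in the double null and 84.2 in the SMARCA4 null, a log2 change of 9.81. The authors' deposited table gives it a double-null ratio to wildtype of 491 (FDR 1.01e-27). IGF2 shares exons with the read-through gene INS-IGF2, so its reads may be split.

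At the lower end, PTGER3, a prostaglandin E2 receptor, stood at 137 implied reads in the double null and 18599 in the SMARCA4 null, a log2 change of -7.08. GLYATL2, a glycine acyltransferase, stood at 6.03 in the double null and 2132 in the SMARCA4 null (log2 change -8.47), and MB21D1, the cytosolic DNA sensor cGAS, at 6.47 in the double null and 857 in the SMARCA4 null (-7.05). For TRIM38, a ubiquitin ligase of innate immune signalling, the values were 20.5 in the double null and 1732 in the SMARCA4 null. SLC2A5, the fructose transporter, was at 7.22 in the double null and 798 in the SMARCA4 null. GLYATL2, MB21D1 and SLC2A5 reached the read minimum only with their SMARCA4-null reads (4429 of 4814, 1780 of 1983 and 1658 of 1747). For such genes the filter favoured a fall.

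In all of the 12 lowest genes the SMARCB1 null lay below both wildtype and the SMARCA4 null. The gap to wildtype was smallest for FBN2, at 7430 reads in the SMARCB1 null and 16573 in wildtype. PTGER3 stood at 313 implied reads in the SMARCB1 null and TRIM38 at 9.71. FAM19A4, a secreted chemokine-like protein, stood at 12.7 implied reads in the double null, 16.3 in the SMARCB1 null and 1411 in the SMARCA4 null. ERMN, a myelin-associated cytoskeletal protein, was at 18.3 in the double null, 37 in the SMARCB1 null and 1144 in the SMARCA4 null, and HNMT, which inactivates histamine, at 10.1 in the double null, 27.4 in the SMARCB1 null and 601 in the SMARCA4 null. LRRC2 was at 13.7 in the double null, 13.8 in the SMARCB1 null and 772 in the SMARCA4 null, the last close to the 770.4 of wildtype. The non-coding RNAs LOC100506790, with 3 double-null reads in all and a fall with a 95% counting interval of 68.3-fold to 968-fold, and LINC01206 (log2 change -6.30) completed the 12 lowest together with FBN2. FAM19A4, LOC100506790 and LINC01206 too reached the read minimum only with their SMARCA4-null reads (2932 of 3792, 594 of 1045 and 1038 of 1448).

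Some genes crossed wildtype. In the authors' deposited table, 51 genes (0.379%) were called higher than wildtype in the double null and lower in the SMARCA4 null, and 66 (0.49%) were called lower in the double null and higher in the SMARCA4 null, each at an FDR under 0.05. Both calls are set against the same wildtype samples, and a gene had to differ between the nulls to be listed, so the counts describe and do not test. TNFAIP6, FOXA2 and AMBN led the first set. FAM133A followed at 623 implied reads in the double null and 8.05 in the SMARCA4 null. Wildtype levels of these genes were low, at 3.95 for TNFAIP6, 6.11 for FOXA2, 7.99 for AMBN and 16.6 for FAM133A. Their fall below wildtype in the SMARCA4 null thus rests on few reads. FOXA2 and FAM133A reached the read minimum only with their double-null reads (1317 of 1732 and 1412 of 2022). RUNX1T1, a transcriptional corepressor, was at 8403 in the double null and 204 in the SMARCA4 null, against 1961 in wildtype. VGLL3, a TEAD cofactor, was at 15078 in the double null and 738 in the SMARCA4 null (log2 change 4.35), NELL2, a secreted axon guidance ligand, at 7846 in the double null and 522 in the SMARCA4 null (3.91) and the glutamate receptor gene GRM8 at 1082 in the double null and 75 in the SMARCA4 null (3.85).

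In the second set, GPC3, a glypican that binds hedgehog and Wnt ligands, stood at 1535 implied reads in the double null and 57821 in the SMARCA4 null, with wildtype between them at 18204. In the authors' deposited table its ratios to wildtype were 0.0843 in the double null (FDR 6.06e-32) and 3.18 in the SMARCA4 null (FDR 5.98e-68). SDC2, the proteoglycan syndecan-2, was at 284 in the double null and 5324 in the SMARCA4 null (log2 change -4.23). BOC, a hedgehog coreceptor, was at 141 in the double null and 2548 in the SMARCA4 null (-4.18), the receptor tyrosine kinase gene LTK at 53.8 in the double null and 992 in the SMARCA4 null (-4.21) and THSD4, a microfibril-associated matrix protein, at 306 in the double null and 4811 in the SMARCA4 null (-3.98). PTGER3, SLC2A5 and EGLN3 were the others among the 8 lowest. LTK and SLC2A5 reached the read minimum only with their SMARCA4-null reads (2062 of 2975 and 1658 of 1747).

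**Figure D3:**
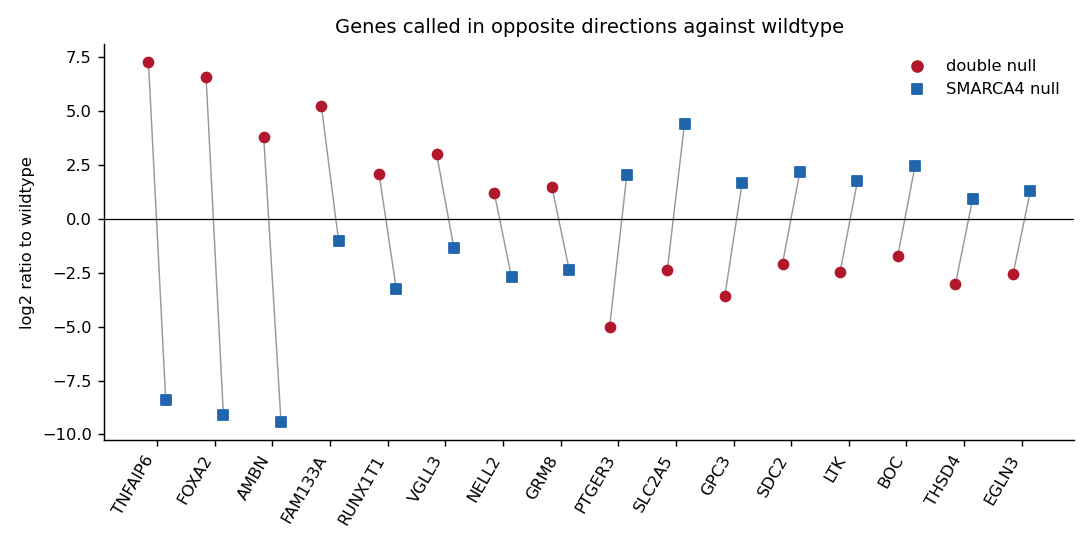
Log2 ratio to wildtype (y axis) in the double null (circles) and the SMARCA4 null (squares) for the 8 highest and 8 lowest genes called in opposite directions, from the authors' deposited table. Each pair of points straddles the line at 0, and the SMARCA4-null points of TNFAIP6, FOXA2 and AMBN rest on groups without reads, so their depth below 0 is not a measured fold.

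Genes of hypoxia and glycolysis, most of them targets of the hypoxia-inducible factors, were mostly lower in the double null. Of 37 genes, 32 had a log2 change below 0, the median was -0.44 beside 0.06 over all genes, 6 were at least 2-fold lower and none at least 2-fold higher. Against wildtype, the authors' deposited table called 20 of the 37 higher and none lower in the SMARCA4 null (8.32% and 5.42% over all 13459 genes), and 4 higher and 7 lower in the double null (12.6% and 7.66%). The median log2 ratio to wildtype was -0.10 in the double null and 0.43 in the SMARCA4 null. The comparisons against wildtype share their wildtype samples, so these counts stand side by side and are not independent.

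EGLN3, the oxygen-sensing prolyl hydroxylase that marks HIF for destruction, stood at 156 implied reads in the double null and 2246 in the SMARCA4 null (log2 change -3.85). SLC16A3, the lactate exporter MCT4, was at 1382 in the double null, 8402 in the SMARCA4 null and 1872 in wildtype (-2.60). PDK1, which diverts pyruvate from the mitochondria, was at 3297 in the double null, 7915 in the SMARCA4 null and 3676 in wildtype (-1.26). The ankyrin-repeat gene ANKRD37 (-1.18), PFKFB4, which sets the glycolytic activator fructose-2,6-bisphosphate (-1.10), and DDIT4, an inhibitor of mTORC1 (-1.09), were the other 3 past 2-fold. The glycolytic kinase PGK1 was lower by less, at a log2 change of -0.82. ANKRD37 reached the read minimum only with its SMARCA4-null reads (912 of 1805). Of the 2 recovered genes of the list, ERO1L, an endoplasmic reticulum oxidase, fell to 4456 and 4532 reads in the double null, against 5546 and 6194 in the SMARCA4 null (log2 change -0.39, SE 0.0805, edgeR adjusted p = 0.0031, and 0.161 without the shallower SMARCA4-null library). ADM, the vasodilator peptide adrenomedullin, had an edgeR adjusted p of 0.223, with 2366 and 2775 reads in the double null and 2199.9 and 2252 in the SMARCA4 null.

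The promoters of the 4 hypoxia genes with the largest differences are shown because HIF binds the core ACGTG. The sequences are the 250 bases before a RefSeq start (GRCh38.p14, gene strand), with ACGTG on either strand in capitals; overlapping matches such as CACGTG are marked as 1 run. Where a gene has several starts, a window that holds the core was taken first, as for SLC16A3, which has 5, and PDK1, which has 2.
EGLN3, chr14:33951075-33951324, minus strand: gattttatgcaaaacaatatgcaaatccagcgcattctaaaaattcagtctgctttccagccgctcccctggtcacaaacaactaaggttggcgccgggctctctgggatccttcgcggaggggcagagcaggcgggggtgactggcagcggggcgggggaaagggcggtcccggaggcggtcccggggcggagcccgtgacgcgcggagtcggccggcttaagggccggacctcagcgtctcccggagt
SLC16A3, chr17:82228792-82229041, plus strand: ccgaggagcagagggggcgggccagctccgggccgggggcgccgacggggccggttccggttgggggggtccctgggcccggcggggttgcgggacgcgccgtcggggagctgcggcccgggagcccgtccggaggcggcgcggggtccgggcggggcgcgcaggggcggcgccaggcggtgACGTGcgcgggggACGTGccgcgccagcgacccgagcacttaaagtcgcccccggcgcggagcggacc
PDK1, chr2:172555840-172556089, plus strand: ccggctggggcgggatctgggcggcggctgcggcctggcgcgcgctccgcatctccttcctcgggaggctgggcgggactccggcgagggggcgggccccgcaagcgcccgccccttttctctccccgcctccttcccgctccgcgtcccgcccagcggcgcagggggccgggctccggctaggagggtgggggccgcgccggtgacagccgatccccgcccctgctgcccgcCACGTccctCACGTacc
ANKRD37, chr4:185396591-185396840, plus strand: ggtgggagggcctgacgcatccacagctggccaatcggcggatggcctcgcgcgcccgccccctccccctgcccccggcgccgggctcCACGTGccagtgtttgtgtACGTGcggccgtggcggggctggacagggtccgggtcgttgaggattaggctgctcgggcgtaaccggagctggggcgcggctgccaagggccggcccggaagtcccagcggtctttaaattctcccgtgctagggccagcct
The EGLN3 window has no ACGTG, and the other 3 have 2 runs each. In PDK1 both lie within 17 bases of the start, while in SLC16A3 the first begins 68 bases before it and in ANKRD37 162 bases before it. Of 32 list genes with a window in the reference table, 21 (65.6%) held ACGTG in at least 1 window, compared with 29.0% of the 9963 compared genes that have one and 21.7% of all 27305 genes in it. The longer TACGTG was held by 11 of the 32 (34.4%), compared with 3.93% of the compared genes. A match describes these letters and is not a bound site, and no match says only that the letters are not in this window. Since the list is mostly of HIF targets, its higher share describes the list and not the difference between the nulls. The number of windows per gene was not matched.

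Cholesterol synthesis genes, the sterol-responsive set driven by SREBP2, were lower in the double null almost throughout. Of 24 genes, 23 had a log2 change below 0, with a median of -0.47, although only 1 passed 2-fold. The authors' deposited table called 9 higher and none lower in the SMARCA4 null, and 1 higher and 4 lower in the double null, against wildtype, while the shares over all genes were 8.32% and 5.42% in the SMARCA4 null and 12.6% and 7.66% in the double null. MSMO1, a sterol methyl oxidase, stood at 4482 implied reads in the double null and 9245 in the SMARCA4 null (log2 change -1.04). STARD4, a sterol carrier, was at 1535 in the double null and 3067 in the SMARCA4 null, and HMGCS1, the HMG-CoA synthase, at 11104 in the double null and 22026 in the SMARCA4 null, with 15848 in wildtype. INSIG1, which retains SREBP in the endoplasmic reticulum, was at 5403 in the double null and 9849.8 in the SMARCA4 null (-0.87).

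Both recovered genes of the cholesterol list fell in the test. MVD, the mevalonate decarboxylase, had 3278 and 3623 reads in the double null, against 4826 and 5728 in the SMARCA4 null (log2 change -0.61, SE 0.0919, edgeR adjusted p = 0.000216). SQLE, the squalene epoxidase, had 9209.7 and 8798 in the double null, against 12169 and 12302 in the SMARCA4 null (-0.44, SE 0.0752, edgeR adjusted p = 0.000644). Without the shallower SMARCA4-null library the edgeR adjusted p was 0.0569 for MVD and 0.061 for SQLE. The ATF4 and amino acid response genes leaned the same way by less, with a median of -0.16 and 2 of 30 at least 2-fold lower, DDIT4 and CTH, the cysteine-making enzyme cystathionine gamma-lyase (-1.01).

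**Figure D4:**
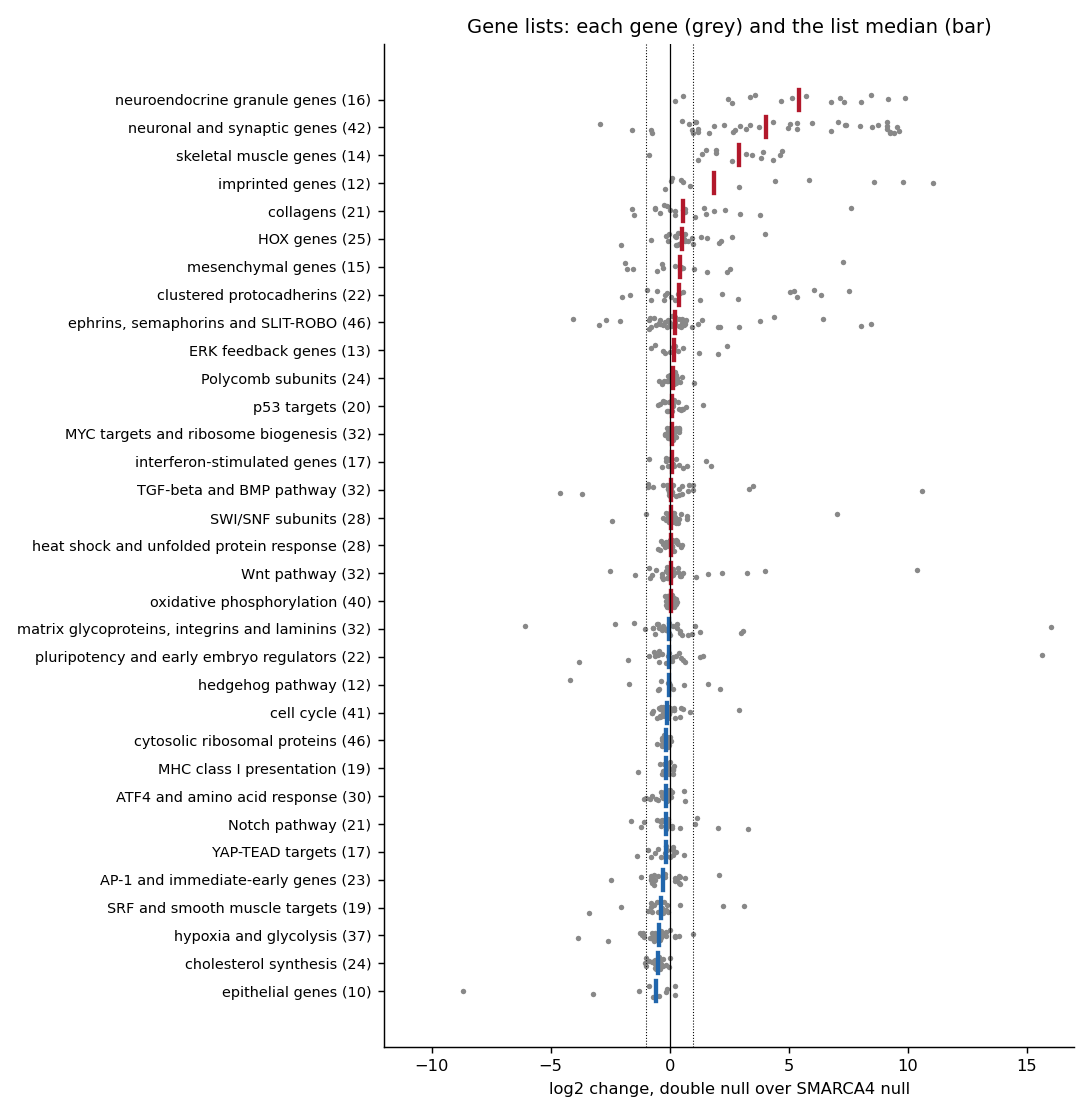
Log2 change, double null over SMARCA4 null (x axis), for every gene (grey points) of each list with at least 10 genes compared, with the number of genes in brackets. Coloured bars are list medians, red above 0 and blue below, and dotted lines mark 2-fold: neuroendocrine, neuronal and muscle lists lie far to the right, and the cholesterol and hypoxia lists lie narrowly to the left.

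Immediate-early genes, the AP-1 factors and others that respond within minutes to growth signals, had a median log2 change of -0.28 over 23 genes, with 2 at least 2-fold lower and 1 at least 2-fold higher. NR4A2, an orphan nuclear receptor, was at 313 implied reads in the double null and 1721 in the SMARCA4 null (-2.46), and ATF3 at 930.0 in the double null and 2118 in the SMARCA4 null (-1.19). FOS was the higher one, at 609 in the double null and 144 in the SMARCA4 null, but neither null was called against wildtype in the authors' deposited table. FOS reached the read minimum only with its double-null reads (1380 of 1988). JUN was at 1746 in the double null and 3023 in the SMARCA4 null, with both above the 319 of wildtype. Of the 7 recovered genes, IER2 fell to 2261 and 2708 reads in the double null, against 3804 and 4582 in the SMARCA4 null (log2 change -0.76, SE 0.104, edgeR adjusted p = 0.000133), and KLF4 to 580.5 and 721 in the double null, against 1109.8 and 924 in the SMARCA4 null (edgeR adjusted p = 0.0244). Without the shallower SMARCA4-null library these p-values from edgeR were 0.0501 for IER2 and 0.192 for KLF4, and KLF4 also missed the threshold without the deeper library of either group (0.342 for the SMARCA4 null and 0.0902 for the double null). Of 13 ERK feedback genes, 9 had a log2 change above 0 and 4 below, with a median of 0.16. The phosphatase gene DUSP4 (2.42), the ETS factor gene ETV5 (2.04) and SPRED3 (1.22) were the 3 past 2-fold, each higher and without a call against wildtype. ETV5 reached the read minimum only with its double-null reads. IL17RD was lower (-0.80), and the authors' deposited table called it higher than wildtype in the SMARCA4 null (FDR 0.022).

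Contractile and cytoskeletal genes controlled by SRF had a median log2 change of -0.37, with 16 of 19 below 0, although 2 were at least 2-fold higher and 2 at least 2-fold lower. Smooth muscle actin ACTA2 was at 1524 implied reads in the double null and 176 in the SMARCA4 null (3.11), and enteric smooth muscle actin ACTG2 at 228 in the double null and 47.7 in the SMARCA4 null (2.26). ANXA1, a phospholipid-binding annexin with anti-inflammatory actions, stood at 5006 in the double null, 52034 in the SMARCA4 null and 2420.3 in wildtype. The authors' deposited table gives it ratios to wildtype of 2.07 in the double null and 21.5 in the SMARCA4 null, with FDRs of 0.00138 and 1.43e-79. TGFB1I1, a focal adhesion adaptor, was at 249 in the double null and 1041 in the SMARCA4 null (-2.06). Among YAP-TEAD targets 1 of 17 passed 2-fold, the matricellular protein gene CTGF (-1.36).

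In developmental signalling pathways, the genes past 2-fold went in both directions. In the hedgehog pathway, GAS1, a coreceptor, rose to 284 and 282 reads in the double null, against 59.8 and 70.5 in the SMARCA4 null (log2 change 2.12, SE 0.269, edgeR adjusted p = 4.58e-05), and DISP1, which releases the ligand, to 626 and 607 in the double null, against 212 and 192 in the SMARCA4 null (1.61, SE 0.197, edgeR adjusted p = 3.04e-05). GAS1 reached the read minimum only with its double-null reads (642 of 1063), so that the filter favoured its rise. BOC was far lower, as above, and the transcription factor gene GLI3 was at 417 implied reads in the double null, 1357 in the SMARCA4 null and 3028 in wildtype (-1.70). The median of the 12 hedgehog genes was -0.04.

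Ligands of the BMP family differed in both directions. BMP4 was at 81.6 implied reads in the double null and 1034 in the SMARCA4 null (-3.66), and BMP2 at 129 in the double null and 11.4 in the SMARCA4 null (3.50). BMP7 had 199.9 and 45.8 reads in the double null, against 5432 and 492 in the SMARCA4 null, whose libraries lay far apart (log2 change -4.57, SE 2.07, edgeR adjusted p = 0.225). ID4, an inhibitor of helix-loop-helix factors, had 4039.7 reads in the deeper and 0 in the shallower double-null library, against 2.56 and 0 in the SMARCA4 null. It reached the read minimum only with its double-null reads (5275 of 5296). The ratio of the groups has a 95% counting interval of 535 to 7575, but the edgeR adjusted p was 0.193, and the fitted log2 change was -3.55 without the deeper double-null library (edgeR adjusted p = 0.621).

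Wnt pathway genes at least 2-fold higher numbered 6 of 32, with 2 at least 2-fold lower, beside 7.95% and 3.1% of all genes. Of the 6, LGR5 alone reached the read minimum only with its double-null reads. Besides LGR5, the secreted antagonist SFRP1 was at 822 implied reads in the double null and 51.2 in the SMARCA4 null (4.01) and the receptor FZD10 at 379 in the double null and 40.2 in the SMARCA4 null (3.24), beside wildtype levels of 680.4 and 1158. The ligand gene WNT3 was at 1598 in the double null and 9103 in the SMARCA4 null, beside 1321 in wildtype (-2.51). WNT10B, another ligand, fell to 435 and 467 reads in the double null, against 836 and 772 in the SMARCA4 null (edgeR adjusted p = 0.00301, but 0.105 and 0.0889 without the deeper and the shallower SMARCA4-null library). In the Notch pathway, 4 of 21 were at least 2-fold higher and 3 at least 2-fold lower, beside the same shares of all genes. The ligand DLL1 was at 2489 in the double null and 254 in the SMARCA4 null (3.29). The coactivators MAML3 and MAML2 had log2 changes of opposite sign, at 2.04 and -1.63.

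HOX genes, the homeodomain factors that set position along the body axis, leaned higher in the double null, with a median of 0.50. At least 2-fold higher were 6 of 25 and at least 2-fold lower 1, beside 7.95% and 3.1% of all genes. Of the 6, 3 (HOXB9, HOXC4 and HOXC5) reached the minimum of 1000 total reads only with their double-null reads. All 25 had at least 500 reads in the SMARCB1-null and wildtype libraries together. The HOXC cluster gave 5 of the 6, of which HOXC4, HOXC5 and HOXC6 overlap in the genome and may share reads. HOXC4 was at 327 implied reads in the double null and 77.3 in the SMARCA4 null, HOXC5 at 348 in the double null and 78.6 in the SMARCA4 null, HOXC6 had a log2 change of 1.30, HOXC8 of 1.56 and HOXC13 of 2.63. HOXB9 (3.99) was the sixth, and HOXA13 (-2.03) the one lower gene. Of the 5 recovered HOX genes, HOXA5 rose to 493 and 577 reads in the double null, against 355 and 403 in the SMARCA4 null (edgeR adjusted p = 0.0393), and HOXB2 to 2229 and 2484 in the double null, against 1827 and 1917 in the SMARCA4 null (edgeR adjusted p = 0.0172). In the Polycomb list, whose complexes silence HOX clusters, 1 of 24 passed 2-fold: JARID2, a PRC2 cofactor, at 11643 implied reads in the double null and 5711 in the SMARCA4 null (1.03). RING1, a PRC1 subunit, fell by under 1.5-fold (edgeR log2 change -0.46). With TMM normalization the edgeR adjusted p was 0.105 for HOXA5 and 0.107 for HOXB2. Without the deeper and the shallower SMARCA4-null library it was 0.29 and 0.176 for HOXA5 and 0.168 and 0.143 for HOXB2, and without the shallower double-null library 0.0856 for HOXA5 and 0.0638 for HOXB2. RING1 had 0.055 without the deeper SMARCA4-null library.

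Among matrix genes, collagens at least 2-fold higher numbered 8 of 21 and lower 2, with a median of 0.55, beside 7.95% and 3.1% of all genes. Of the 8, 3 reached the read minimum only with their double-null reads. Among the 18 with at least 500 reads in the SMARCB1-null and wildtype libraries together, 6 were higher and 2 lower. COL12A1 was at 475 implied reads in the double null, 60.4 in the SMARCA4 null and 4.51 in wildtype (2.97), and COL19A1 at 231 in the double null, 46 in the SMARCA4 null and 423 in wildtype (2.33). COL25A1, a transmembrane collagen, was low in both nulls (3.77). COL4A2 of the basement membrane had 1329 and 5.2 reads in the double-null libraries, against 3.42 and 3.31 in the SMARCA4 null, so that the higher level lay in 1 library (edgeR adjusted p = 0.207). Among 32 glycoproteins, integrins and laminins, 5 were at least 2-fold higher and 4 lower. Besides HAPLN1 and FBN2, the laminin gene LAMA4 was at 2164 implied reads in the double null and 253 in the SMARCA4 null (3.10) and SPARC, a collagen-binding glycoprotein, at 1627 in the double null and 201 in the SMARCA4 null (3.01), the second without a call against wildtype.

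Of 10 epithelial genes 3 were at least 2-fold lower and none higher, beside 3.1% and 7.95% of all genes, with a median of -0.56. The 23 epithelial markers found in the table summed to 28347 implied reads in the double null and 50758 in the SMARCA4 null, whereas the 9 recovered ones among them summed to 1347 and 1432 in the double-null libraries, against 1156 and 1182 in the SMARCA4 null, and DSG1, described above, was higher in the double null. ESRP1, the epithelial splicing factor, was at 1.56 implied reads in the double null and 642 in the SMARCA4 null, and DSP, the desmosomal plaque protein desmoplakin, at 2018 in the double null and 18912 in the SMARCA4 null (-3.23). CLDN3, a tight junction claudin, was at 243 in the double null and 584 in the SMARCA4 null (-1.27). Of the 3, only DSP was called against wildtype, with a double-null ratio of 0.123 in the authors' deposited table (FDR 4.72e-29). ESRP1 reached the read minimum only with its SMARCA4-null reads (1335 of 1961). Mesenchymal genes split, with 5 of 15 at least 2-fold higher and 3 lower, beside 7.95% and 3.1% of all genes. Of the 5, 2 reached the read minimum only with their double-null reads. TWIST1, the helix-loop-helix factor of mesenchyme, rose to 2096 and 2497 reads in the double null, against 1114 and 1118 in the SMARCA4 null (log2 change 1.04, SE 0.105, edgeR adjusted p = 3.93e-06). LOX, which crosslinks collagen, was at 1359.8 implied reads in the double null and 5007 in the SMARCA4 null (-1.88), and THY1, a surface glycoprotein, at 1964 in the double null and 366 in the SMARCA4 null (2.42). CDH11, a mesenchymal cadherin, had 1261 and 1.04 reads in the double-null libraries, against 5.98 and 2.2 in the SMARCA4 null, and without the deeper double-null library its fitted log2 change was -1.89, in place of 7.18 (edgeR adjusted p = 0.647 and 0.236).

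The largest list medians were those of cell type programs, namely neuroendocrine, neuronal and skeletal muscle genes. Few of these could be split by library: 3 of 16, 3 of 42 and 2 of 14. Of those recovered, 2, 3 and 0 had over 90% of their double-null reads in the deeper library. Of 42 neuronal and synaptic genes, 34 were at least 2-fold higher in the double null and 2 lower, with a median log2 change of 4.05, and the authors' deposited table called 9 of them higher than wildtype in double-null cells (12.6% of all genes). Of the 42, 19 reached the minimum of 1000 total reads only with their double-null reads, all of them among the 34, so that the filter favoured a rise in this list. Among the 22 with at least 500 reads in the SMARCB1-null and wildtype libraries together, 14 were at least 2-fold higher and 2 lower, with a median of 1.20. NEFM, a neurofilament, was at 26147 implied reads in the double null and 38 in the SMARCA4 null, and STMN2, a tubulin regulator of growth cones, at 24804 in the double null and 40.3 in the SMARCA4 null. The authors' deposited table gives NEFM and STMN2 double-null FDRs against wildtype of 0.504 and 0.65. NEFL, another neurofilament, was at 50734 implied reads in the double null and 83.2 in the SMARCA4 null. It could not be split by library, but that table called it higher than wildtype in the double null (FDR 0.00787). The 3 recovered genes had at least 98.3% of their double-null reads in the deeper library. SLC17A6, the vesicular glutamate transporter, had 2729 reads there and 1.04 in the shallower library, against 3.42 and 0 in the SMARCA4 null. SYT4, a synaptotagmin, had 5889.9 and 2.08 in the double null, against 16.2 and 0 in the SMARCA4 null, and INA, alpha-internexin, 30371 and 518 in the double null, against 1665 and 1703 in the SMARCA4 null.

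In the shallower double-null library INA, at 518 reads, lay below both SMARCA4-null libraries. SLC17A6 and SYT4, at 1.04 and 2.08 reads there, lay below the deeper SMARCA4-null library and above the shallower, which had 0. Without the deeper double-null library the fitted log2 change of INA was -1.70, in place of 3.20 (edgeR adjusted p = 0.0115 and 0.313), that of SYT4 -1.98, in place of 8.37, and that of CHGA -0.31, in place of 7.14. GAD1, which makes GABA, and SYN3, a synapsin, were the 2 lower genes, with log2 changes of -2.91 and -1.56. Neuroendocrine granule genes were at least 2-fold higher in 14 of 16 cases (median 5.43), and 5 were called higher than wildtype in the double null (12.6% of all genes). Of the 16, 9 reached the read minimum only with their double-null reads, and 5 of the 7 with at least 500 reads in the SMARCB1-null and wildtype libraries were at least 2-fold higher (median 2.61). PCSK1N, a prohormone convertase inhibitor, had 3914 and 2.08 reads in the double-null libraries, against 6.83 and 0 in the SMARCA4 null, and CHGA, chromogranin A, 5109.5 and 14.6 in the double null, against 20.5 and 15.4 in the SMARCA4 null. CPE, carboxypeptidase E, lay above the SMARCA4 null in both libraries without an edgeR call (edgeR adjusted p = 0.14), at 33298 and 6615 in the double null, against 4350.2 and 3010.2 in the SMARCA4 null. The authors' deposited table called CPE higher than wildtype in the double null (FDR 0.005). Skeletal muscle genes were at least 2-fold higher in 13 of 14 cases (median 2.90), at low levels and with no call in the double null. ACTA1 was at 254 implied reads in the double null and 12.5 in the SMARCA4 null, while the SMARCB1 null held 6137. The authors' deposited table did not call that SMARCB1-null level against wildtype (FDR 0.791), and ACTA1 could not be split by library. For the 12 recovered muscle markers, the deeper SMARCB1-null library had 3324 summed reads and its partner only 40.6.

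Imprinted genes, expressed from a single parental copy, were partly of the same kind. At least 2-fold higher were 6 of 12 (median 1.88), 5 of which reached the read minimum only with their double-null reads. NDN, a growth suppressor of postmitotic neurons, had 1892 and 2.08 reads in the double-null libraries, against 0.854 and 0 in the SMARCA4 null, a ratio with a 95% counting interval of 387 to 85242 (edgeR adjusted p = 0.184). SNRPN (8.59), NNAT (5.86) and MEST (4.43) could not be split by library and had no call against wildtype, unlike IGF2. The clustered protocadherins, surface labels of neurons whose isoforms share exons so that reads may be shared among them, were at least 2-fold higher in 9 of 22 cases and lower in 2, but 8 of the 9 reached the read minimum only with their double-null reads. PCDHA4 was at 1065 implied reads in the double null and 5.79 in the SMARCA4 null, without a call against wildtype. Only 1 of the 9 had one.

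Of 46 ephrins, semaphorins, plexins, slits and robos and their receptors, 10 were at least 2-fold higher and 4 lower, beside 7.95% and 3.1% of all genes. The 4 lower ones all had a call in at least 1 null against wildtype: NRP1, the neuropilin coreceptor (-4.07), SEMA6A (-2.98), EPHA4 (-2.69) and SLIT3 (-2.09). Of the 10 higher ones 3 had a call, and the 4 most extreme, EPHA5 (8.45), PLXNA4 (8.03), PLXNA2 (6.42) and SLIT1 (4.37), had none. Calls were also more frequent on the lower side over all genes, with 281 of 417 lower and 432 of 1070 higher genes. Of the 10, 5 reached the read minimum only with their double-null reads. Of the 3 recovered genes, the ligand EFNA5 fell to 2834 and 2503 reads in the double null, against 3524 and 3629.7 in the SMARCA4 null (edgeR adjusted p = 0.00352, but 0.101 and 0.165 without the deeper and the shallower SMARCA4-null library).

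Regulators of early embryo identity were mostly level, with 3 of 22 at least 2-fold higher, FOXA2 among them, and 2 lower (7.95% and 3.1% of all genes). Of the 3, 2 reached the read minimum only with their double-null reads. Of the 2 lower, DPPA2 reached it only with its SMARCA4-null reads. DPPA2, a pluripotency factor, was at 38.1 implied reads in the double null, 533 in the SMARCA4 null and 38.9 in wildtype (-3.81). TFAP2C was at 978 in the double null and 3315 in the SMARCA4 null (-1.76). Among 4 germline genes the RNA-binding DAZL was at 22.9 in the double null, 179 in the SMARCA4 null and 1869 in wildtype (-2.96). SYCP2, of the meiotic synaptonemal complex, fell to 155 and 215 reads in the double null, against 306 and 331 in the SMARCA4 null (edgeR adjusted p = 0.0429), with p-values of 0.182 to 0.355 from edgeR without the deeper double-null or either SMARCA4-null library.

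Of 17 interferon-stimulated genes 2 were at least 2-fold higher (7.95% of all genes), the RNA sensor IFIH1 (1076 implied reads in the double null and 321 in the SMARCA4 null) and the nucleotide kinase CMPK2 (326 in the double null and 112 in the SMARCA4 null). USP18, which damps interferon signalling, rose to 3596 and 4240.4 reads in the double null, against 2763 and 2577 in the SMARCA4 null (log2 change 0.55, SE 0.0922, edgeR adjusted p = 0.00055, and 0.1 without the shallower SMARCA4-null library). Of 19 MHC class I genes only the transactivator gene NLRC5 passed 2-fold (-1.31).

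Ribosomal, mitochondrial, chaperone and MYC target lists stayed within 2-fold throughout. None of 46 ribosomal protein genes, 40 oxidative phosphorylation genes, 28 heat shock and unfolded protein response genes or 32 MYC targets passed it, with medians of -0.14, 0.04, 0.06 and 0.09. Of the ribosomal protein genes 44 had a log2 change below 0, and the authors' deposited table called 19 lower than wildtype in the double null (7.66% of all genes) and 1 in the SMARCA4 null (5.42% of all genes). RPL13A was at 63399 implied reads in the double null and 91115 in the SMARCA4 null (-0.52). CCND1, cyclin D1, alone passed 2-fold among 41 cell cycle genes, at 1723 in the double null, 229 in the SMARCA4 null and 287 in wildtype (2.91). The G1 regulators CCNE1 and RB1 changed in the test by less: CCNE1 rose to 3004 and 2935 reads in the double null, against 2259 and 2008 in the SMARCA4 null (edgeR adjusted p = 0.00164), and RB1 fell to 10079 and 9313 in the double null, against 14058 and 12397 in the SMARCA4 null (edgeR adjusted p = 0.00132). CCNE1 had an edgeR adjusted p of 0.142 without the shallower and RB1 of 0.0991 without the deeper SMARCA4-null library. Of 20 p53 targets only SESN1, a stress-induced regulator of mTORC1, passed 2-fold, at 7309 implied reads in the double null and 2735 in the SMARCA4 null (1.42).

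SMARCB1 loss can also be read on the wildtype background, from the SMARCB1_Null and Wildtype samples, which are none of the 4 compared so far. Across the 13459 genes the log2 changes on the SMARCA4-null and wildtype backgrounds had a Pearson r of 0.29 and a Spearman rho of 0.35, a description across genes, which are not independent and share the libraries of each group. At least 2-fold higher on both backgrounds were 418 genes, which is part of 1070 on the SMARCA4-null and 801 on the wildtype background. At least 2-fold lower on both were 174, out of 417 and 587. In opposite directions were 157 genes higher on the SMARCA4-null and lower on the wildtype background, and 36 the reverse. Among the 12847 genes with at least 50 implied reads in each of the 4 groups, 192 were higher on both, 129 lower on both, 52 higher on the SMARCA4-null and lower on the wildtype background and 20 the reverse. In the edgeR fit, 364 recovered genes rose (18.7%) and 183 fell (9.4%) in the SMARCB1 null relative to wildtype. Of all calls, 183 genes were called on both backgrounds in the same direction, 47.0% of the calls on the SMARCA4-null and 33.5% of those on the wildtype background, and 21 in opposite directions.

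A contrast of all 4 groups, added after results were known, tested whether SMARCB1 loss changed a gene by a different amount on the 2 backgrounds. Of 1947 genes, 90 (4.62%) had a more positive change on the SMARCA4-null background and 114 (5.86%) a more negative one at an edgeR adjusted p under 0.05. When 1 wildtype, SMARCB1-null or SMARCA4-null library was left out, 8 to 18 genes were called on the positive and 15 to 29 on the negative side. NPY1R, a receptor of neuropeptide Y, had 163 and 141 reads in the double null and 95.7 and 59.5 in the SMARCA4 null, but 64 and 61.5 in the SMARCB1 null and 519 and 533 in wildtype. Its log2 change was 0.96 on the SMARCA4-null and -3.06 on the wildtype background, a difference of 4.03 (SE 0.373, edgeR adjusted p = 2.83e-06). H2AFY2, the histone variant macroH2A2, rose on both backgrounds, by 0.93 without and by 3.24 with SMARCA4 (difference -2.32, SE 0.118, edgeR adjusted p = 3.22e-09). Its reads were 6568 and 5898 in the double null and 3174 and 3393 in the SMARCA4 null, against 5004 and 5059.7 in the SMARCB1 null and 537 and 526 in wildtype. MAP3K5, the stress kinase ASK1, fell without SMARCA4 (-1.15) and rose with it (0.64), a difference of -1.78 (SE 0.137, edgeR adjusted p = 3.62e-07).

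**Figure D5:**
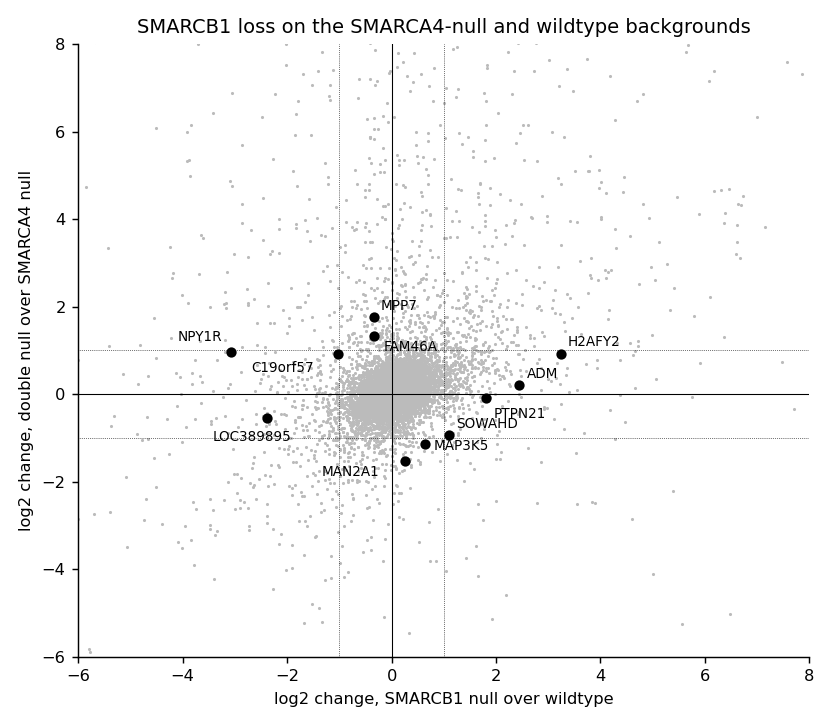
Log2 change with SMARCB1 loss on the SMARCA4-null background (double null over SMARCA4 null, y axis) and on the wildtype background (SMARCB1 null over wildtype, x axis) for the compared genes (grey), with dotted lines at 2-fold. Black points are 11 tested genes whose changes differ between the backgrounds, and 196 genes lie outside the axes, which run from -6 to 8.

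The thresholds cut through a continuum. Just past the upper 2-fold line lay SBK1 and TLN2, at log2 changes of 1.0009 and 1.0015, and just short of it ZNF713 and ACHE, at 0.9997 and 0.9989. At the lower line TPGS2 (-1.0004) and ZNRF2 (-1.0045) lay just past and MAP3K6 (-0.9998) and LINC00910 (-0.9989) just short. At the read minimum, PCDHB9 with 1000.3 total reads and FUT1 with 1001 were included, while LOC101929340 with 999 and KY with 999 were not. FUT1, a fucosyltransferase of blood group H synthesis, had a log2 change of -1.1824.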

How the data were processed

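RNA was extracted from HAP1 cells at 70% confluence and sequenced from a stranded mRNA library kit, per the labels' protocols. STAR, Partek 4.0 and the hg19 build are named in the submitters' processing notes. How reads were counted, normalized and tested was not given in the sources used here. Per the file headers, the deposited table holds each gene's total reads over 8 samples (an estimated count, not always whole), and for each null against wildtype the ratio, the fold change (a score that is the ratio or minus its inverse), the p-value and the FDR that the authors computed. No value per sample is in it.

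The log2 change is the log2 of the quotient of 2 deposited ratios. Implied levels came from the total and the 3 ratios. Where the total was whole (within 0.001), integer reads per library that give all 3 ratios were searched for, and 1974 of the 13459 genes had a solution. The search and the tests were tested on simulated data. Implied levels of solved genes differed from the recovered ones by a median of 0.257%. The quasi-likelihood test of edgeR 4.0.16 (R 4.3.3) was run on the recovered reads of all 8 libraries with the authors' scaling, a low-count filter and Benjamini-Hochberg adjustment. TMM normalization and DESeq2 1.42.0 were among the alternatives. Intervals and floors (3 reads over a group) cover counting error only. Depth was 67900917 to 102917960 reads a library, and the labels mention no molecular identifiers, so reads may not be independent molecules.

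The members and gene lists were chosen with earlier results of these data known. Genes were named by rank: the 12 highest and 12 lowest changes with at least 50 reads and an FDR under 0.05, the 8 highest and 8 lowest with opposite calls, the 10 largest tested rises and falls, and up to 4 of each list. The tested rises and falls were taken only from genes whose double-null and SMARCA4-null libraries did not overlap. IER2, KLF4, MVD, SQLE, ERO1L, TWIST1, USP18, HOXA5, HOXB2, CCNE1, RB1, WNT10B, EFNA5, PFKFB4, PGK1, ADM, NRP1, SEMA6A, EPHA4, SLIT3, HOXA13, HOXC6, HOXC8, MEST, GAD1, NEFL, SYN3, INA, SYT4, CHGA, CPE, SST and the 11 genes named for the contrast between backgrounds were chosen after their values were seen. Some genes that these rules name are not reported here.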

Additional observations from a re-analysis of the deposited data

Results flagged for a closer look

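For 11 tested genes the change with SMARCB1 loss differed between the SMARCA4-null and the wildtype background, by an edgeR contrast of all 4 groups, which was chosen after seeing the data. They are 5 of the most positive and 6 of the most negative differences among those called, taken from genes with at least 50 reads in each group whose double-null and SMARCA4-null libraries did not overlap. The change was more positive without SMARCA4 for NPY1R, a neuropeptide Y receptor, by 4.03 (log2 change 0.96 on the SMARCA4-null and -3.06 on the wildtype background), for MPP7 by 2.11, for C19orf57 by 1.94, for LOC389895 by 1.84 and for FAM46A by 1.65. The difference was negative for H2AFY2 at -2.32, for ADM at -2.24, for SOWAHD at -2.03, for PTPN21 at -1.89, for MAN2A1 at -1.80 and for MAP3K5 at -1.78. ADM had log2 changes of 0.21 on the SMARCA4-null and 2.45 on the wildtype background. MAN2A1 fell on the SMARCA4-null background, with a log2 change of -1.54, and had 0.26 on the wildtype background. The contrast of C19orf57, LOC389895 and SOWAHD missed the threshold when single libraries were left out, with an edgeR adjusted p of 0.0526 or 0.0559 for C19orf57 without a wildtype library, 0.088 to 0.154 for LOC389895 and 0.0728 to 0.217 for SOWAHD.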

How the results depend on the processing

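Counts over all genes followed the settings that define them. At least 2-fold higher and lower in the double null were 3679 and 997 genes with no read minimum, and 405 and 261 with a minimum of 5000 total reads. With a minimum of 500 reads in the SMARCB1-null and wildtype libraries together they were 664 and 374. The 1.5-fold line gave 1671 and 870, the 4-fold line 652 and 172, and an FDR under 0.05 in either null left 432 higher. The median log2 change was 0.11 with no minimum and 0.042 with 5000. Opposite calls with the double null higher numbered 28 at an FDR under 0.01. In edgeR, TMM gave 128 rises and 255 falls, no low-count filter 151 and 92, DESeq2 215 and 291, and leaving out 1 of the 4 libraries 36 to 359 rises and 30 to 183 falls. Unadjusted, 658 of 1947 genes had a p under 0.05. Recovered genes at least 2-fold higher numbered 65 to 145 and lower 26 to 65 with 1 library left out. Differences between backgrounds numbered 8 to 190 more positive and 15 to 160 more negative. The fitted log2 change reversed without the deeper double-null library for CDH11 (-1.89), CHGA (-0.31), ID4 (-3.55), INA (-1.70) and SYT4 (-1.98), and without the shallower one it reached 8.16 for CDH11, 8.12 for CHGA, 11.33 for ID4, 4.17 for INA and 9.33 for SYT4; the cause was not tested. Over the named genes, 442 of the other values kept direction and side of the threshold, 66 fell short of it and 14 passed it. The lone library of a group left with 1 was assumed to vary like the other groups. No paired analysis was possible because the libraries were recovered only as the deeper and the shallower of each group and carry no replicate number, passage or guide. Depth limits the genes with 3 reads or fewer in a group, for which only bounds or counting intervals are given.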
